A study of Mus musculus with 4 samples.

Results

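The Hedgehog pathway was described here by 8 genes: the secreted ligands Shh and Ihh, the receptor Ptch1, the signal transducer Smo, the transcription factors Gli1, Gli2 and Gli3, and the ligand-binding inhibitor Hhip. They were taken as every probe set that the platform annotation assigns to 1 of these genes alone, which gave 19 of the 45101 probe sets and 8 of 18193 genes. Ureter tumors were compared with normal ureter, with 2 Affymetrix Mouse Genome 430 2.0 arrays in each group. All 4 samples carry the background C57Bl/6 and an age of 6 to 8 weeks, and the protocol describes isolated ureter epithelium. The same treatment text stands on every sample: mice of the genotype R26rtTA;teto-Cre;Ncstnf/f received doxycycline for 1 week from an age of 3 weeks, which switches on the Cre recombinase. No label gives the genotype group by group, so the normal ureters may or may not carry these alleles. Rosa26 is a broadly active locus, and the cells that recombined are not given either. Ncstn encodes nicastrin, part of the protease that releases the active form of Notch receptors.

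In the absence of ligand, Ptch1 holds Smo inactive. When Shh or Ihh binds Ptch1, Smo acts through the primary cilium to turn Gli2 and Gli3 from repressors into activators, and Gli1, Ptch1 and Hhip are themselves transcribed in response. In the urinary tract the epithelium makes Shh and the cells beneath it respond, so that ligand and response genes largely belong to different cells. In RNA from many cells at once, a smaller number of cells of one type and less RNA per cell cannot be told apart. Although the protocol describes isolated epithelium, the arrays held strong signals of cells that such an isolation should remove, among them the fat cell hormone Adipoq, chosen after its values were seen, with 9631 and 6.28 on the tumor arrays and 81675 and 84064 on the normal arrays.

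Ptch1 and Hhip are the members known as targets and as inhibitors of the pathway, and both gave lower signals in the tumors. For this reason the 250 bases before 1 listed transcription start of each are shown. The Ptch1 gene reaches to 63573460, so its window lies within the gene, and the bases before its outermost start were neither shown nor searched. The Hhip gene reaches to 80058060, a point within its window. The sequences are those of RefSeq on GRCm38.p6, 5' to 3' on the strand of the gene, and capitals mark CG dinucleotides.
Ptch1, chr13:63565736-63565985, minus strand: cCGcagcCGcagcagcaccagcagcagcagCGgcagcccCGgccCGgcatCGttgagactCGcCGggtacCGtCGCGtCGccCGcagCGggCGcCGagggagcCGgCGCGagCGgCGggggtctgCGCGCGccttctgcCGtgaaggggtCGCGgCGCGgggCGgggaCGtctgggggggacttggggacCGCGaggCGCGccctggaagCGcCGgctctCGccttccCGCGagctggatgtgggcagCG
Hhip, chr8:80058009-80058258, minus strand: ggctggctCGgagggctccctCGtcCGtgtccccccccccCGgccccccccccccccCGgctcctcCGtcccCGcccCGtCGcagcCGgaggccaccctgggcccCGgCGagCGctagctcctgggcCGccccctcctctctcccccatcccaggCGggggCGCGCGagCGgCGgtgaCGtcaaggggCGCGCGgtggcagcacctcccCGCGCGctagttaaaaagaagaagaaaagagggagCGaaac
The Ptch1 sequence held 41 CG dinucleotides and the Hhip sequence 28, against a median of 6.0 over all 32851 promoter windows. The consensus Gli binding motif GACCACCCA was searched on both strands of the 300 bases around the start, 250 before it and 50 after it, in the 6 members with an entry, which are Ihh, Gli2, Smo, Hhip, Gli3 and Ptch1. It was found in 0 of these 6 windows, and in 0 of 6 with 1 mismatch allowed, a looser search added after the exact one had been run. Over all windows the shares were 0.253% and 6.74%. These letters were therefore not in these windows, which says nothing of Gli binding elsewhere at these genes.

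The deposited values were linear MAS5 signals, scaled so that the mean of each array, without the top and bottom 2% of probe sets, was 500. Values were compared as log2(signal + 16), which understates the differences of dim probe sets, and 95% intervals are those of limma. Across 13046 genes the correlation between the tumor arrays was 0.786 and between the normal arrays 0.976. For Gapdh, the 3' probe set over the 5' one gave 1.51 and 1.44 on the tumor arrays and 0.92 and 0.923 on the normal arrays, a ratio that rises as RNA degrades. For Actb it ran the other way, at 2.47 and 2.63 on the tumor arrays and 2.90 and 2.82 on the normal arrays, so the ratios give no common order of the groups. Their part in the results below was not tested. The targeted gene Ncstn had signals of 81.6 and 131 on the tumor arrays and 99.0 and 66.2 on the normal arrays, a log2 difference of 0.30 (limma adjusted p = 0.725), and its other probe set had 66.3 and 46.2 on the tumor arrays and 84.8 and 89.6 on the normal arrays. Since the labels do not say which part of Ncstn is deleted, these values check no label.

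Of the 8 genes, 7 had a brightest probe set at or above the filter limit, a signal of 54.6, and were tested. Of these 7, 0 passed limma at an adjusted p of 0.05, where 1.43% of all 13046 genes did (0.491% higher and 0.943% lower in tumors). At an unadjusted p under 0.05 there were 4, with Smo higher and Shh, Hhip and Ptch1 lower in the tumors, where 21.5% of all genes reached that level (10.6% higher and 10.9% lower in tumors). The groups did not overlap for the same 4 of 7, where 57.1% of all genes did not (29.4% with both tumors above and 27.7% with both below), so the members' share was at the background. The median log2 difference of the 7 was -0.54 and that of all genes tested was 0.03. Hhip passed the filter only through its normal arrays and Ihh did not pass, so counts over the tested members do not stand for all 8.

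**Figure D1:**
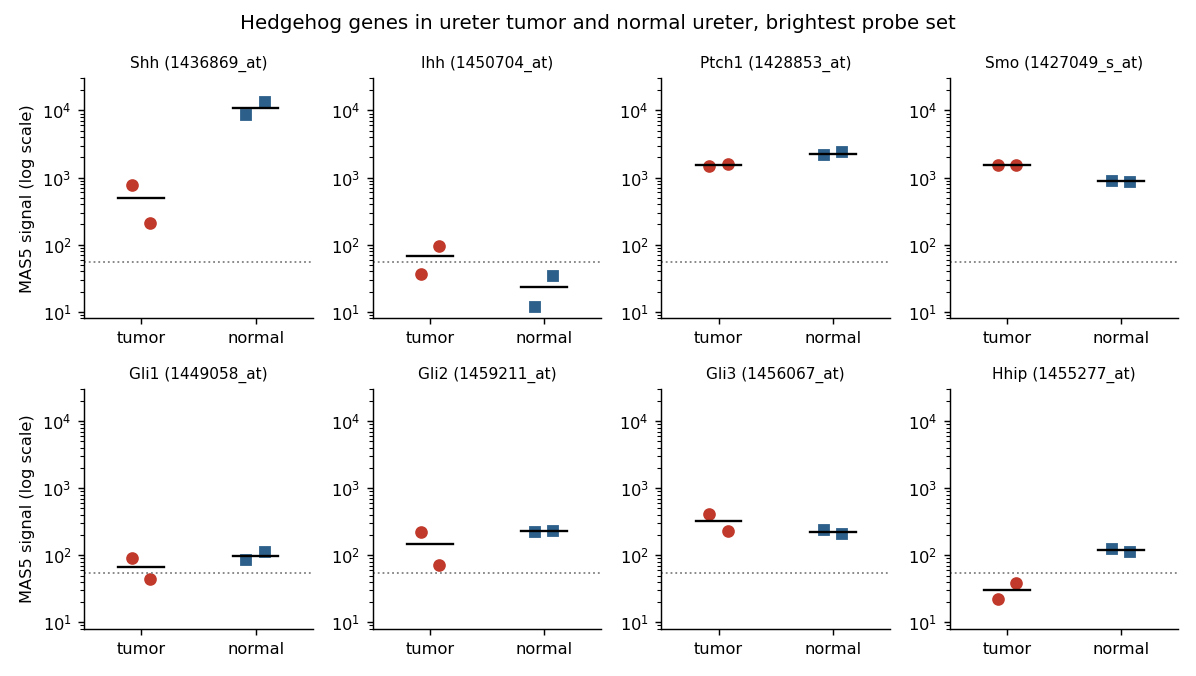
MAS5 signal (log scale) of the brightest probe set of each Hedgehog gene on 2 tumor arrays (circles) and 2 normal arrays (squares), with bars at the group means and a dotted line at the filter limit of 54.6. Shh was at 771 and 207 on the tumor arrays, against 8592 and 13234 on the normal arrays, while the gap between groups was far smaller for Ptch1 and Smo.

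The ligand Shh had by far the widest gap between the groups. Its bright probe set, 1436869_at, had signals of 771 and 207 on the tumor arrays, against 8592 and 13234 on the normal arrays. Both tumor arrays lay far below both normal arrays, and tumor replicate 2 was the lower of the tumors. The mean signal was 489 ± 399 in tumors and 10913 ± 3283 in normal ureter (SD, n = 2 each), 22.3-fold higher in normal ureter. On the log2 scale the difference was -4.67 (SE 0.69, 95% interval -6.57 to -2.78), and only 37 of the 13046 genes had a lower one. It missed the threshold with a limma adjusted p of 0.0729.

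The dimmer Shh probe set, 1427571_at, had signals of 18.6 and 5.1 on the tumor arrays and 94.8 and 143 on the normal arrays. It again had both tumor arrays below both normal arrays, and its log2 difference was -2.30 (95% interval -3.60 to -0.99) in a fit of every probe set with no filter. Its tumor values lie far below the filter limit, so neither their order nor the size of the difference is measured by it. On the bright probe set tumor replicate 1 was 3.72-fold above tumor replicate 2.

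Ihh, a ligand best known from cartilage and gut, was dim in all samples. Its only probe set, 1450704_at, had signals of 37.0 and 97.0 on the tumor arrays and 11.7 and 34.2 on the normal arrays. The tumor arrays were higher, but the lower tumor value lay only just above the higher normal value. The mean was 67.0 ± 42.4 in tumors and 23.0 ± 15.9 in normal ureter (SD, n = 2 each), so its mean over the arrays fell short of the filter and it was not tested. Without a filter the log2 difference was 1.05 (limma adjusted p = 0.448).

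The receptor Ptch1 and the transducer Smo were bright and repeated closely within each group. Ptch1 (1428853_at) had signals of 1498 and 1603 on the tumor arrays and 2162 and 2370 on the normal arrays. The tumors were lower on both arrays, at -0.59 and -0.49 log2 units from the normal mean. Shh was at -3.76 and -5.58 on the same arrays, and a link between Ptch1 and Shh was not tested. The Ptch1 difference was -0.54 (SE 0.17, 95% interval -1.01 to -0.07, limma adjusted p = 0.195), with group means 1.46-fold higher in normal ureter. The other Ptch1 probe sets were dim. Of these, 1439663_at had signals of 60.1 and 55.2 on the tumor arrays and 48.5 and 84.5 on the normal arrays, with overlap, and 1450824_at had 4.77 and 8.73 on the tumor arrays and 12.6 and 9.15 on the normal arrays.

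Smo (1427049_s_at) had signals of 1563 and 1542 on the tumor arrays, against 887 and 862 on the normal arrays. The groups were well apart and the arrays of each group nearly equal. The mean was 1.78-fold higher in tumors, with a log2 difference of 0.82 (SE 0.17, 95% interval 0.34 to 1.29, limma adjusted p = 0.119). The name of this probe set marks probes that can match more than 1 transcript. A further Smo probe set without that mark, 1427048_at, had 480 and 509 on the tumor arrays and 300.4 and 281 on the normal arrays, a log2 difference of 0.74. The third, 1442215_at, had signals of 20.4 and 4.53 on the tumor arrays and 1.86 and 19.5 on the normal arrays and showed no order of the groups.

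Hhip, a membrane protein that binds Hedgehog ligands and holds them from Ptch1, was dim. Its brightest probe set, 1455277_at, had signals of 22.3 and 38.1 on the tumor arrays, against 126 and 110 on the normal arrays. Both tumor arrays were lower, and in this case tumor replicate 1 was the lowest. The mean was 30.2 ± 11.2 in tumors and 118 ± 11 in normal ureter (SD, n = 2 each), and the log2 difference was -1.56 (SE 0.40, 95% interval -2.66 to -0.45, limma adjusted p = 0.154). The 3 other probe sets were below the filter limit. Of these 1437933_at also had lower tumor values, 1.77 and 45.3, against normal values of 49.2 and 75.0, and 1421426_at and 1438083_at overlapped between the groups, with log2 differences of -0.22 and 0.04.

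The brightest probe sets of the 3 Gli factors overlapped between the groups. Gli1, the factor most often used as a readout of active Hedgehog signaling, had signals of 89.8 and 44.7 on the tumor arrays and 83.9 and 112 on the normal arrays. Tumor replicate 1 lay between the normal arrays and tumor replicate 2 below them. The log2 difference was -0.50 (95% interval -1.75 to 0.76, limma adjusted p = 0.578), an interval wide on both sides of 0.

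Gli2, the main activator, had signals of 224 and 72.4 on the tumor arrays and 223 and 231 on the normal arrays with 1459211_at. Tumor replicate 1 was at the level of the normal arrays and tumor replicate 2 was 3.13-fold below their mean. The log2 difference was -0.74 (SE 0.58, limma adjusted p = 0.514). The other probe set, 1446086_s_at, was dim, with a mean of 57.8 just above the filter limit of 54.6. Its name marks probes that can match more than 1 transcript. It pointed the other way with 115 and 66.8 on the tumor arrays and 97.5 and 8.13 on the normal arrays. The range in normal ureter was wider than the range in the tumors, and the lower normal value was far below the limit. The direction of Gli2 is therefore not settled by these arrays.

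Gli3, whose cut form is the main repressor of the pathway, had signals of 414 and 228 on the tumor arrays and 238 and 211 on the normal arrays with 1456067_at. Tumor replicate 1 was highest and tumor replicate 2 lay between the normal arrays. The log2 difference was 0.43 (SE 0.38, limma adjusted p = 0.565). With 1455154_at both tumors were higher, at 349 and 141, against 120 and 59.4 on the normal arrays, and the log2 difference was 1.24 (95% interval -0.28 to 2.77 in the fit of every probe set). The third probe set, 1450525_at, was below the filter limit at 32.6 and 48.0 on the tumor arrays and 62.0 and 26.0 on the normal arrays, with overlap.

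**Figure D2:**
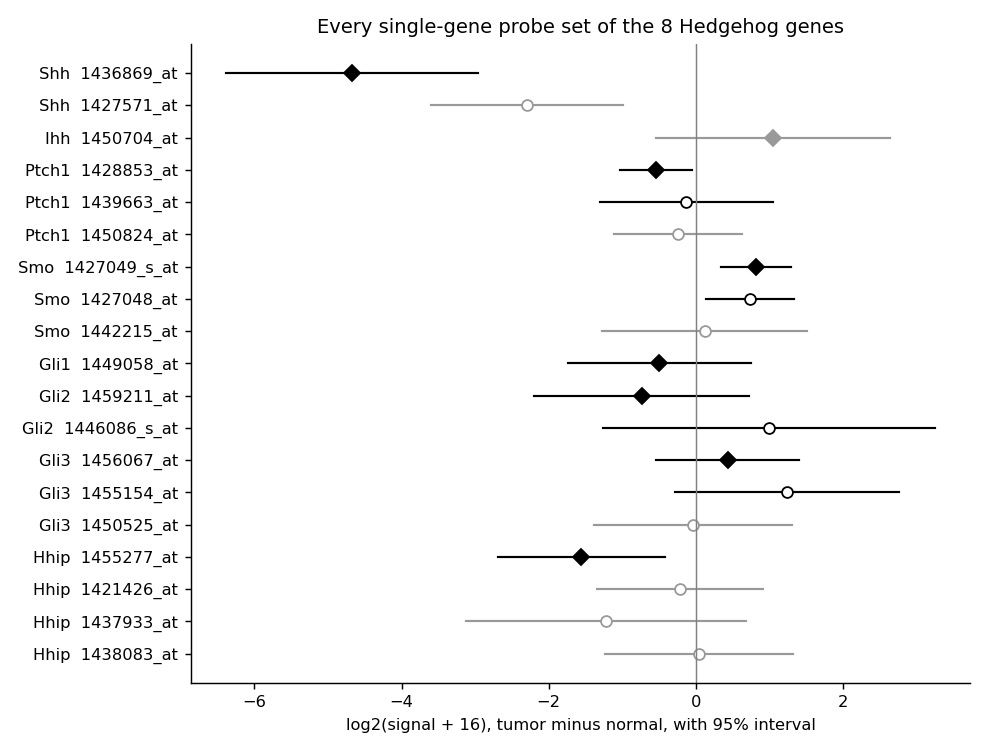
Difference between tumor and normal ureter on the log2(signal + 16) scale for all 19 probe sets, with 95% limma intervals from a fit of every probe set; black marks pass the filter limit, grey marks do not, and filled diamonds are the brightest probe set of each gene. Both Shh probe sets lie below 0, both bright Smo probe sets above 0, and the 2 Gli2 probe sets on opposite sides.

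The tumors differed from each other in some members and not in others. On the log2 scale tumor replicate 1 stood above tumor replicate 2 by 1.82 in Shh, 1.44 in Gli2, 0.81 in Gli3 and 0.80 in Gli1. In Smo the gap was 0.02 and in Ptch1 it was -0.10, while Hhip had -0.50 and Ihh had -1.09. The normal arrays differed by less than the tumor arrays in Shh, Gli1, Gli2, Gli3, Hhip and Ihh, and by slightly more in Ptch1 and Smo. The calls depended in part on the tumor array used. Without tumor replicate 1, limma called 4 members, Shh, Ptch1 and Gli2 lower and Smo higher, and without tumor replicate 2 it called 5, Shh, Ptch1 and Hhip lower and Smo and Gli3 higher. In these fits the spread comes from the normal arrays alone, and 4298 and 5502 of 13046 genes were called. Shh, Ptch1 and Smo were called in both of these fits, and Gli2, Gli3 and Hhip in 1 of them.

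Shh belongs to the epithelium, so its values were set beside urothelium markers. Of 21 such markers, 4 fell and 17 did not pass, with a median log2 difference of -1.0. The uroplakin Upk3a, a protein of the surface plaques of umbrella cells, fell by 6.76 on the log2 scale (limma adjusted p = 0.0369), and Upk1b fell by 5.66 (adjusted p = 0.0425). Krt20, a keratin of umbrella cells, fell by 4.93 (adjusted p = 0.042). Pparg, a nuclear receptor of differentiated urothelium and of fat, fell by 4.85 (adjusted p = 0.0425). Upk2 and Upk1a had log2 differences of -2.91 and -2.79 (adjusted p = 0.13 and 0.15). Differences in the other direction stood beside these. The groups did not overlap for 15 of the 21, with 5 higher and 10 lower in tumors. Over all genes 57.1% did not overlap, 29.4% with both tumors above and 27.7% with both below. The 5, named after their values were seen, included the general epithelial genes Epcam at 1.82, Elf3 at 1.26, Cdh1 at 0.85 and Ehf at 0.63. The last was the basal keratin Krt14 at 3.46 (adjusted p = 0.0961 to 0.389 for the 5 in limma). The 4 calls were lost without either normal array, with no intensity trend and with the replicate block, and those of Krt20, Pparg and Upk1b also after centring on the array median, while the Upk3a difference stayed between -7.23 and -6.06 over all alternatives.

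Markers of the basal layer, where Shh is made in mouse bladder, differed widely between the tumors. Krt5, a basal keratin, had signals of 15780 and 628 on the tumor arrays and 3415 and 5518 on the normal arrays. Trp63, the basal cell transcription factor, had 10167 and 440 on the tumor arrays and 2446 and 3847 on the normal arrays. On these brightest probe sets tumor replicate 1 was thus above both normal arrays for Krt5 and Trp63 and tumor replicate 2 below. For Trp63 the other probe sets above the filter limit did not repeat the rise. The brighter had 620 and 45.2 on the tumor arrays and 657 and 701 on the normal arrays. The dimmer had 108 and 36.2 on the tumor arrays and 98.2 and 115 on the normal arrays. The place of Trp63 on tumor replicate 1 therefore depended on the probe set. Shh was below both normal arrays on each tumor. Krt14 had 16715 and 1088 on the tumor arrays and 367 and 383 on the normal arrays, so it was higher on both tumors. On tumor replicate 1 Shh was 14.2-fold below the normal mean. The part of basal cell numbers in the Shh values was not tested. On their brightest probe sets the log2 differences of Krt5 and Trp63 were -0.45 and -0.52. They turned to 1.86 and 1.72 without tumor replicate 2. The summed signal of the urothelium list was 131758 and 54029 on the tumor arrays and 104871 and 155642 on the normal arrays. No marker of it was listed at 0, but some lay far below the filter limit. Upk3b was at 13.6 on tumor replicate 1 and Grhl3 at 14.9 on tumor replicate 2.

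**Figure D3:**
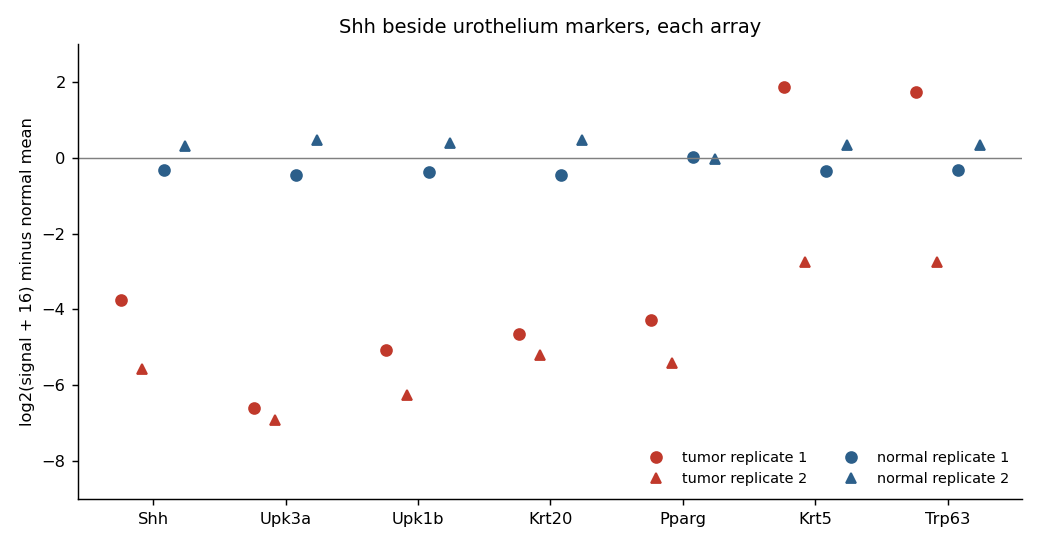
Each array's log2(signal + 16) minus the mean of the normal arrays, for Shh, the differentiation markers Upk3a, Upk1b, Krt20 and Pparg and the basal markers Krt5 and Trp63, with tumor arrays in red and normal arrays in blue. Shh lies at -3.76 and -5.58 on tumor replicates 1 and 2. On their brightest probe sets, Krt5 and Trp63 lie above 0 on tumor replicate 1 and below 0 on tumor replicate 2.

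Ptch1, Gli1 and Hhip are mostly made by the cells beneath the epithelium, so stromal markers are given beside them. Smooth muscle markers had a median of -1.32, and of 11 genes 2 fell and 9 did not pass. Myh11, smooth muscle myosin, fell by 3.37 (limma adjusted p = 0.0402) and Mylk, which phosphorylates myosin, fell by 2.10 (adjusted p = 0.0425), while Cnn1 had a difference of -2.59 (adjusted p = 0.0594) and Synm one of -3.23 (adjusted p = 0.122). The summed signal of the list was 37071 and 43721 on the tumor arrays and 89996 and 74844 on the normal arrays. Neither Myh11 nor Mylk passed without either normal array, with the mean of probe sets (adjusted p = 0.101 and 0.0626), after centring on the array median (0.0501 and 0.0509), with no intensity trend (0.0603 and 0.0638) or with the replicate block (0.108 and 0.117).

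Fibroblast markers gave 0 of 14 genes past the limma test, with 4 higher and 1 lower at an unadjusted p under 0.05 and a median of 0.56. Their differences lay on both sides of 0, with 8 above and 6 below. They ran from -1.80 in Dpt to 1.76 in Thy1, with Lum at -1.50. The 4 named next had the smallest p, and all 4 were higher in tumors. Fn1 and Pdgfrb, a matrix protein and a growth factor receptor, differed by 1.59 and 1.44 (adjusted p = 0.126 and 0.141), while Thy1 and Col1a1, a surface protein and a collagen, had 1.76 and 1.00 (adjusted p = 0.171 and 0.178). Their summed signal was 206744 and 89471 on the tumor arrays and 142495 and 111191 on the normal arrays. Fat cell markers were summed to 38449 and 6266 on the tumor arrays and 259741 and 278084 on the normal arrays, immune markers to 88575 and 63027 on the tumor arrays and 8455 and 7434 on the normal arrays, and kidney tubule markers to 6681 and 183385 on the tumor arrays and 42539 and 70956 on the normal arrays. By limma 1 of 7 fat cell markers fell, Ucp1 of brown fat, with 3.15 and 3.41 on the tumor arrays and 19660 and 21580 on the normal arrays (adjusted p = 0.00863). Its tumor values lie far below the filter limit, so no fold is given. Of 9 immune markers 3 rose, Jchain by 5.31, Cd74 by 2.45 and Csf1r by 1.96 (adjusted p = 0.0288, 0.0408 and 0.0425), and these 4 calls were lost without either normal array and with the replicate block. The 3 immune calls were also lost with no intensity trend, those of Cd74 and Csf1r after centring on the array median, and that of Csf1r with no filter. Of the rest, 0 of 10 kidney tubule, 0 of 9 endothelial and 0 of 6 nerve and Schwann cell markers passed, with 0, 2 and 2 of these at an unadjusted p under 0.05. No marker of any list was listed at 0, which does not show that each cell type was present. Some values lay far below the filter limit, among them Cubn at 1.67 on tumor replicate 1 and Cdh19 at 1.16 on tumor replicate 2. The part of these cell types in the values of Ptch1, Smo, Hhip and the Gli factors was not tested.

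The other genes of the pathway lay on both sides of 0, more of them above. Of 35 listed genes, 32 were on the array under 1 gene symbol and 30 were tested, and limma called 0, with 4 higher and 3 lower at an unadjusted p under 0.05. The median difference was 0.18, with 22 genes above 0 and 8 below, and that of all genes tested was 0.03. Scube2, a secreted protein that helps release Hedgehog ligands from the cells that make them, had signals of 41.7 and 63.8 on the tumor arrays and 370.0 and 446 on the normal arrays. Both tumors were far lower, with a log2 difference of -2.64 (SE 0.34, adjusted p = 0.0626). When every probe set was tested on its own it was the 1 call in this list. Its difference was the same and its limma adjusted p was 0.047. Scube2 passed the filter mainly through its normal arrays, since tumor replicate 1 lay below the limit of 54.6 and tumor replicate 2 only just above it. The call therefore depended on high normal values, and the size of the difference is uncertain. With no filter, read from its brightest probe set, Scube2 was not called.

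Prkaca, a catalytic subunit of protein kinase A, which marks Gli proteins for processing into repressors, had a log2 difference of -1.72 (SE 0.25, adjusted p = 0.0721) with a probe set whose probes may be shared, and -0.89 with its other bright one. Arrb2, a beta-arrestin that binds Smo, had a difference of 1.55 (adjusted p = 0.103), and Tulp3, which carries receptors into the cilium, had 1.21 (adjusted p = 0.109). Genes of the primary cilium and of transport along it gave 0 of 34 past limma, with 1 higher and 0 lower at an unadjusted p under 0.05. Their differences ran from -0.47 to 1.01 with a median of 0.24, a narrow range with 22 above 0. B9d1, of the gate at the base of the cilium, had the highest at 1.01 (adjusted p = 0.158), and the transport subunits Ift140, Ift57 and Ift20 had 0.66, 0.75 and 0.41.

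Genes linked to the response of the stroma to Hedgehog or to ureter mesenchyme had values in both directions. Of 18 tested, 1 rose and 17 did not pass, with 3 higher and 4 lower at an unadjusted p under 0.05 and a median of -0.08. Aldh1a2, which makes retinoic acid, had signals of 941 and 1268 on the tumor arrays and 176 and 141 on the normal arrays. It rose, with a log2 difference of 2.67 (SE 0.28, adjusted p = 0.0479 in limma), a call that was lost without either normal array, with no filter (0.0577), with no intensity trend (0.0638), after centring on the array median (0.0501) and with the replicate block (0.119). Bmp2, a BMP ligand, had a difference of -1.85 (adjusted p = 0.0568), Wnt5a, a Wnt ligand, -1.38 (adjusted p = 0.083) and Osr1, a transcription factor of urogenital mesenchyme, -1.52 (adjusted p = 0.171). All 3 had both tumors below both normal arrays, but they were named for their small p. Of the 18 tested, 8 had both tumors below both normal arrays and 3 had both above. Over all genes these shares were 27.7% and 29.4%.

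Genes named as Gli targets across tissues gave 0 of 15 past limma, with 2 higher and 2 lower at an unadjusted p under 0.05 and a median of 0.14. The cell cycle genes Cdk6 and Ccnd1 had differences of 1.13 and 1.10 (limma adjusted p = 0.119 and 0.22), beside a mitosis list in which 13 of 13 genes had both tumors above both normal arrays, where 29.4% of all genes did. Igf2, a growth factor, had a difference of -2.02 (adjusted p = 0.213). Mycn, a growth regulator, had -1.42 (adjusted p = 0.15), while its other bright probe set pointed up with 75.2 and 335 on the tumor arrays and 41.3 and 35.6 on the normal arrays.

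**Figure D4:**
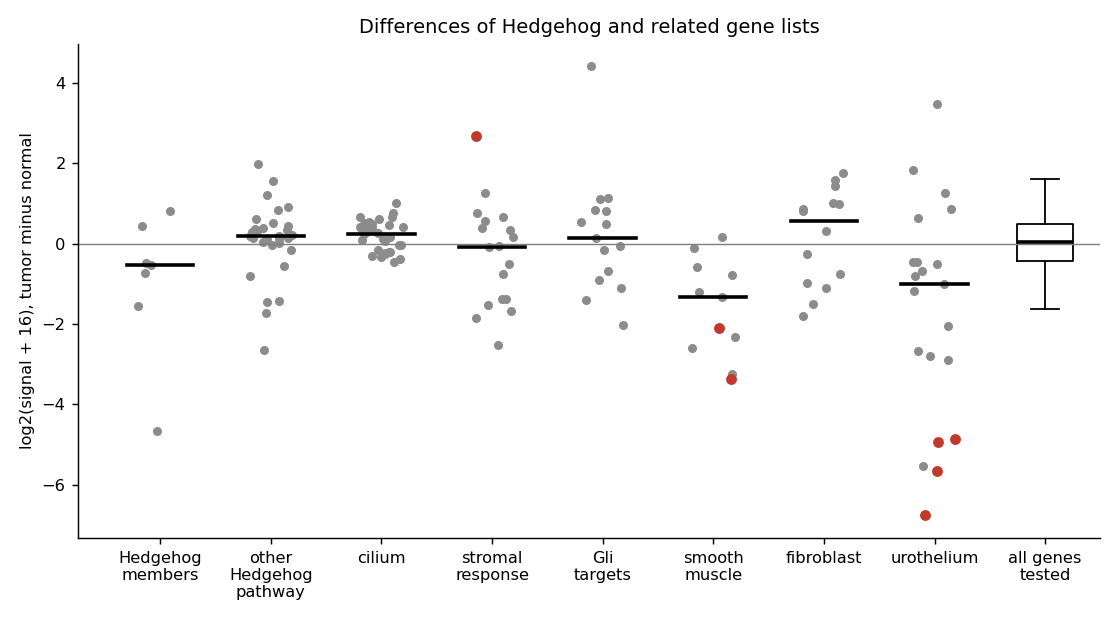
Difference between tumor and normal ureter on the log2(signal + 16) scale for each tested gene of 8 lists, with bars at the list medians, red for genes past limma and, at the right, all 13046 genes as a box of the quartiles with whiskers at the 5th and 95th percentiles. Shh, at -4.67, is the lowest of the Hedgehog members and stands apart from the other 6.

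The genes of the lists whose values over the 4 arrays were nearest to those of each member were found by the root mean square difference of log2 values, each gene centred on its mean, among 203 genes. For Shh these were Pparg at 0.35, Krt20 at 0.48 and Lipe, a fat cell lipase, at 0.48. For Ptch1 they were the stromal factor Foxd1 at 0.07, Cldn5 at 0.10 and Ift88 at 0.12, and for Hhip they were Prkaca, Bmp2 and the muscle filament gene Des at 0.13, 0.16 and 0.16. Smo was nearest to Efcab7, Hsd11b1 and Cdh1 at 0.13, 0.17 and 0.18. Gli1 was nearest to Cep164, Bbs5 and Gata3 at 0.13, 0.19 and 0.20, Gli2 to Gata3, Pax6 and Dcn at 0.13, 0.15 and 0.19, and Gli3 to Spop, Col3a1 and Gpr161 at 0.06, 0.10 and 0.10. With 4 arrays in 2 groups these values describe the arrays and no more.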

How the data were processed

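Per the submitters' processing notes, the authors used MAS5, and the deposited values are linear signal intensities of single probe sets. Version and detection calls: not given in the sources used here. No signal is therefore called absent. Of 45101 probe sets, 64 controls were left out and 34945 had 1 gene symbol in the platform annotation, of which 34741 were updated through a RefSeq gene table. Each gene was read from its brightest single-gene probe set on the log2(signal + 16) scale. Genes whose mean reached the 40th percentile over the probe sets without controls were tested.

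limma 3.58.1 in R 4.3.3 compared the groups with an intensity trend, two-sided, with Benjamini-Hochberg adjustment over 13046 genes and a threshold of 0.05. There were 2 residual and 2.11 prior degrees of freedom. The samples are labelled as biological replicates but tied to no animal, so p-values measure only how these samples vary, which may be technical. An exact permutation test could not pass with so few arrays and was not run. In 10 simulated runs with 200 of 13046 genes changed, limma called 0.147%, 1.21% and 31.3% of genes changed by 1, 2 and 4 log2 units. Such rates depend on how many genes change. In the data 2802 genes were at an unadjusted p under 0.05 in limma, so the rates do not give the power of the reported fit.

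The members and lists were chosen with earlier results of these data known. Named genes are all members with every probe set, Ncstn, chosen urothelium markers, up to 4 genes with the smallest p and those called in each list described, and the 3 nearest listed genes of each member. The alternatives were other pseudocounts, scalings, filters, probe set rules and variance priors, the replicate number as a block, and each array left out. Plots were drawn with matplotlib 3.10.9.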

Additional observations from a re-analysis of the deposited data

How the results depend on the processing

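Of 103 values of the 8 members under the alternatives, 93 were counted as unchanged in direction and side of the threshold and 1 changed direction. Filters, variance priors, the block and testing every probe set leave the log2 difference as it is, so many values could not change direction. Ihh had 1 value and no side of the threshold to keep. The rest came from leaving out a tumor array, where the spread comes from the normal arrays alone. The change was Gli2, at 0.13 with the mean of its probe sets. The number of members limma called was 0 in the reported fit, with 4 at an unadjusted p under 0.05, and 0 to 5 when an array was left out. The number of members whose groups did not overlap was 4, where 57.1% of all genes did not. With an array left out, 1 array set against 2 overlaps less easily by design, so those counts are not given. Among the other Hedgehog pathway genes it called 0, with 7 at an unadjusted p under 0.05, 0 to 12 when an array was left out, and 1 with every probe set tested. Over all genes it called 187, which became 35 after centring on the array median (10 higher and 25 lower, beside 64 and 123), 117 with the mean of probe sets, 473 with every probe set, 2 with no intensity trend and 0 to 5502 when an array was left out. Centring moved the median of all genes to 0.22, and Smo and Ptch1 were then at 1.01 and -0.35.

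With the replicate number as a block limma called 0 genes, with 2253 at an unadjusted p under 0.05, and 0 members, with Shh at an adjusted p of 0.125. The deviations of same-numbered arrays correlated at 0.0391, so the numbers were not taken as pairs. Over the alternatives the Shh difference ran from -5.58 to -3.49. Among other named genes, directions changed with the mean of probe sets in Ncstn (-0.11) and Mycn (0.012). They also changed when an array was left out, with ranges of -0.11 to 0.78 in Spop, -0.13 to 0.74 in Col3a1, -2.76 to 1.86 in Krt5, -2.76 to 1.72 in Trp63, -1.70 to 0.19 in Dcn and -0.29 to 0.53 in Boc. The causes were not tested. The number of arrays limits every comparison.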

Other observations

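The genes below were picked with their values in view. Gas1, Cdon and Boc are co-receptors that help Ptch1 bind ligand. Gas1 had signals of 2111 and 4004 on the tumor arrays and 8916 and 6906 on the normal arrays, a log2 difference of -1.43 (limma adjusted p = 0.16). Cdon had 351 and 454 on the tumor arrays and 966 and 518 on the normal arrays. Boc had 256 and 239.9 on the tumor arrays and 306 and 166 on the normal arrays, with overlap. Dhh, the ligand of Schwann cells, had 57.7 and 125 on the tumor arrays and 143 and 124 on the normal arrays, so it too overlapped.

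Bmp4, a BMP ligand that Shh induces in ureter mesenchyme in mouse embryos, stood higher in both tumors while Shh stood lower. Its signals were 822 and 1745 on the tumor arrays and 473 and 514 on the normal arrays, a log2 difference of 1.25 (SE 0.42, limma adjusted p = 0.207). Foxf1, a further stromal gene induced by Hedgehog in mouse, had 344 and 65.4 on the tumor arrays and 417 and 436 on the normal arrays. Tbx18, a factor of ureter mesenchyme, had 878 and 34.3 on the tumor arrays and 1314 and 1088 on the normal arrays, with tumor replicate 2 far below the other 3 arrays. Fibroblast markers also had their lowest sum on tumor replicate 2, at 89471, and kidney tubule markers had their highest sum there, at 183385. The part of either in these values was not tested.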
